A study of Mus musculus with 8 samples.

Results

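The genes described here are the matrix metalloproteinases (MMPs), their tissue inhibitors (TIMPs), and the ADAM and ADAMTS metalloproteinases, taken by symbol alone. The pattern found 79 genes among the 56953 gene identifiers counted, made up of 23 MMPs, 4 TIMPs, 33 ADAMs and 19 ADAMTSs. Of these, 39 had enough counts to be tested between genotypes and 40 did not. Counts come from whole livers of adult male mice, 4 control libraries from wild-type mice and 4 libraries from HSC-PCK1-KO mice, which lack the gluconeogenic enzyme PCK1 in hepatic stellate cells. Every mouse, controls included, had been fed CDHFD, a high-fat diet deficient in choline, over 8 weeks. This diet brings on fatty liver with inflammation and scarring, so no group here is an unchallenged liver. All libraries carry a single batch label, and the sources used here name neither the strain nor the promoter that drives the deletion. The comparison asks whether transcripts of these enzymes and inhibitors differ in whole liver when stellate cells lack PCK1, in a study of fibrosis.

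MMPs are zinc enzymes that cut collagens and other matrix proteins, either secreted as inactive precursors or anchored in the cell membrane. TIMPs bind the active site and block it. ADAMs are membrane enzymes that shed growth factors, cytokines and receptors from the cell surface, and ADAMTSs are secreted relatives that process procollagen, cut proteoglycans or cleave von Willebrand factor. In injured liver, stellate cells are known as a source of Mmp2, Timp1 and Timp2, and macrophages as a source of Mmp12 and Mmp13.

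Library totals ranged from 44695439 to 49477255 counts. Levels are in CPM, a library's counts scaled to a common total. Differences are log2 fold changes from edgeR's quasi-likelihood fit over all 15669 genes tested, negative where HSC-PCK1-KO was lower. Pck1 itself ranged from 551 to 2012 CPM in control and from 339 to 948 CPM in HSC-PCK1-KO livers, a log2 fold change of -0.78 (SE 0.44) with overlapping groups. Hepatocytes are its main source in liver, so these values say nothing of the deletion in stellate cells. Hepatocyte markers summed to 89312 to 112050 CPM and all 8 were tested. In bulk tissue, fewer cells of a type and less RNA per cell cannot be told apart. The series' design text calls the 4 libraries of a group biological replicates.

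None of the 39 tested members differed between HSC-PCK1-KO and control at an adjusted p of 0.05 in edgeR (0 of 39), where 0% of all genes passed. At an unadjusted p under 0.05 there were 0 members, against 2.36% of all genes (1.34% lower and 1.02% higher in HSC-PCK1-KO). DESeq2 called 0 members (0.0383% of all genes), with 0 at an unadjusted p under 0.05 against 2.34% of all genes. limma-voom with sample weights called 0 (0% of all genes), with 1 member, Mmp9, at an unadjusted p under 0.05 (0.030) against 2.45% of all genes. In no member did the 4 control and the 4 HSC-PCK1-KO values stand apart without overlap, which 1.53% of all genes did.

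Per kilobase of exon, the scale on which genes can be compared, Mmp19 and Adam9 led. Mmp19, a secreted MMP, had 22.3 ± 2.78 CPM per kb (SD, n = 8), and Adam9, a widely expressed sheddase, had 19.4 ± 1.19 CPM per kb. Mmp19 was above Adam9 in 7 of 8 libraries, and Adam9 was above Mmp15 in all 8. Mmp15, a membrane-type MMP, followed with 7.23 ± 0.92 CPM per kb and Adam10, the sheddase that cuts Notch receptors, with 6.28 ± 0.48 CPM per kb, and this pair did not keep its order, Mmp15 being higher in 5 of 8 libraries. Timp2 had 4.79 ± 1.05 and Mmp14, the membrane-type MMP that activates pro-MMP2, had 4.15 ± 0.64 CPM per kb, with Timp2 higher in 6 of 8 libraries. Mmp14 was in turn above Adamts1 in 8 of 8 libraries.

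Adamts1, a protease of proteoglycans, Adam17, the sheddase of TNF, and Timp3, the matrix-bound inhibitor, stood close together at 2.79, 2.59 and 2.48 CPM per kb. From Mmp11 at 1.66 to Mmp12 at 1.17 CPM per kb lay 8 genes whose neighbours exceeded each other in only 3 to 6 of 8 libraries, Timp1 among them. Mmp13 had 0.49, Adam8 had 0.24 and Mmp9 had 0.17 CPM per kb. The lowest tested member was Adam12 at 0.054 CPM per kb. These lengths count every annotated exon, so a gene with long exons that liver does not use, such as Adam23 with 17.9 kb, is understated.

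**Figure D1:**
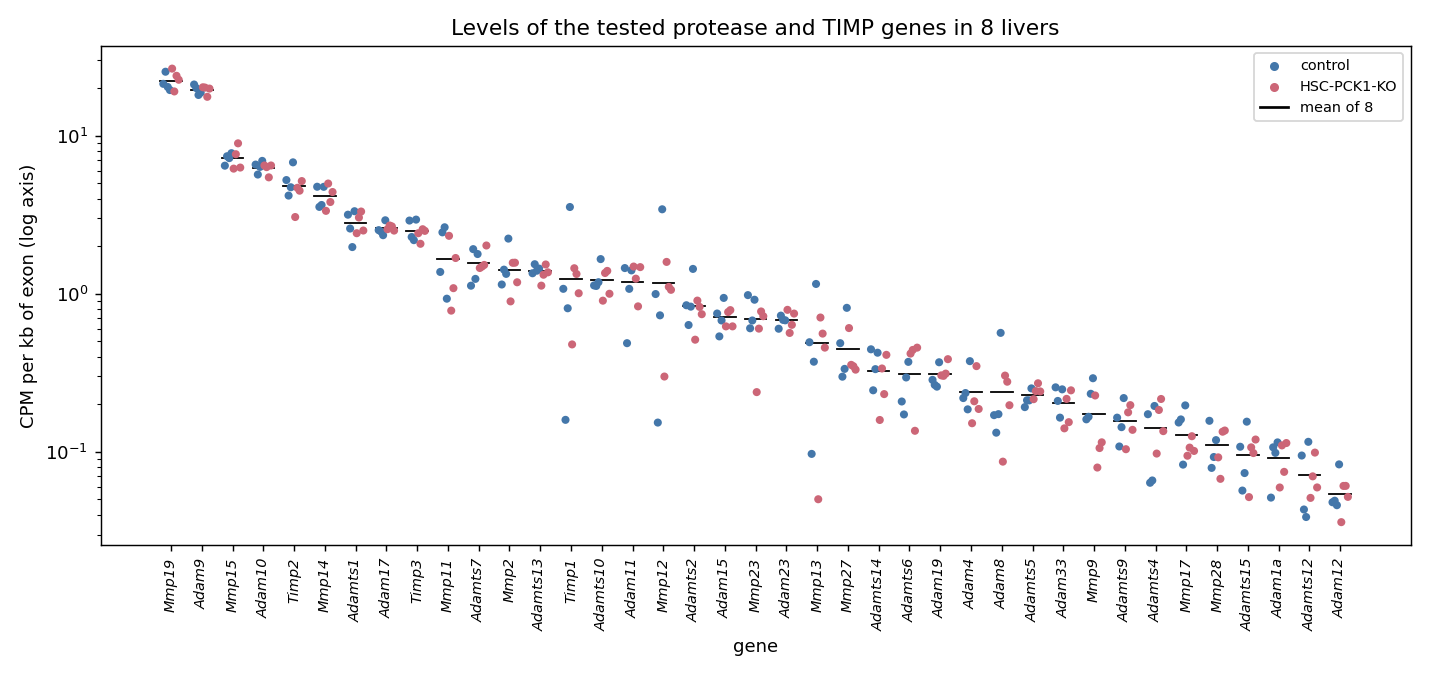
CPM per kb of exon (log axis) of the 39 tested genes in each of the 8 libraries, ordered by the mean of 8 (black line), control in blue and HSC-PCK1-KO in red. Mmp19 and Adam9 stand above the rest, and the points of Timp1, Mmp12 and Mmp13 spread over more than 20-fold while those of Adam9 and Adam17 lie close together.

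The inhibitors differed widely in how steady they were. Timp1 (ENSMUSG00000001131.12), the inducible inhibitor that rises in fibrotic liver, had 0.95, 0.14, 0.72 and 3.14 CPM in control replicates 1 to 4 and 0.42, 1.29, 1.18 and 0.89 CPM in HSC-PCK1-KO replicates 1 to 4. Control replicate 4 was far above all others and control replicate 2 far below, with 164 and 6 counts, so the HSC-PCK1-KO values lay inside the control range. The log2 fold change was -0.40 (SE 0.74), with a 95% interval from -2.09 to 1.30 that spans a 2-fold change either way. Leaving out 1 library at a time gave -0.76 to 0.63, the upper end being without control replicate 4.

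Timp2 (ENSMUSG00000017466.11), a constitutive inhibitor that also takes part in the activation of pro-MMP2, had 20.4, 16.3, 18.4 and 26.4 CPM in control and 11.9, 18.2, 17.5 and 20.1 CPM in HSC-PCK1-KO livers. Control replicate 4 was the highest and HSC-PCK1-KO replicate 1 the lowest, and the other 6 libraries lay between 16.3 and 20.4 CPM. The log2 fold change was -0.27 (SE 0.18, 95% interval -0.68 to 0.15), and -0.11 without control replicate 4.

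Timp3 (ENSMUSG00000020044.14) had 23.6, 18.6, 17.8 and 24 CPM in control and 19.7, 16.9, 20.8 and 20.3 CPM in HSC-PCK1-KO livers, a log2 fold change of -0.11 (SE 0.11). The groups overlapped, though controls 1 and 4 lay above every HSC-PCK1-KO value and HSC-PCK1-KO replicate 2 below every control, and it was the steadiest of the inhibitors, with a highest value 1.42 times the lowest. By the annotation, 21.3% of its exon bases lie opposite exons of Syn3, and the strand setting of the counts is not given, so reads of the pair cannot be told apart. Timp4 had 1 count in 1 library and 0 in the other 7.

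Among secreted MMPs, Mmp12 and Mmp13 had the same library order at both ends as Timp1 in the control group. Mmp12 (ENSMUSG00000049723.15), macrophage elastase, had 7.2, 1.11, 5.28 and 24.8 CPM in control replicates 1 to 4 and 2.17, 11.5, 8.00 and 7.66 CPM in HSC-PCK1-KO replicates 1 to 4. The highest value, in control replicate 4, was 22.3 times the lowest, in control replicate 2. Its log2 fold change was -0.39 (SE 0.87, 95% interval -2.46 to 1.67). With 1 library left out at a time it ranged from -0.76 to 0.69, the latter without control replicate 4.

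Mmp13 (ENSMUSG00000050578.11), the main interstitial collagenase of rodents, had 1.32, 0.26, 0.99 and 3.08 CPM in control and 0.13, 1.89, 1.5 and 1.22 CPM in HSC-PCK1-KO livers. The range was 23.0-fold, from 6 counts in HSC-PCK1-KO replicate 1 to 161 counts in control replicate 4. Its log2 fold change was -0.26 (SE 0.79), and it ranged from -0.60 to 0.46 with 1 library left out, the latter without control replicate 4. Thus the 3 members with the widest range, Timp1, Mmp12 and Mmp13, took a positive in place of a negative value when that library was left out.

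Mmp12 and Mmp13 are neighbours in a block of 10 MMP genes on chromosome 9, in the order Mmp13, Mmp12, Mmp1b, Mmp3, Mmp1a, Mmp10, Mmp8, Mmp27, Mmp20 and Mmp7 by RefSeq's annotation of GRCm38.p6. Only 3 of these 10, Mmp12, Mmp13 and Mmp27, were tested. The other 7 had 0 to 30 counts over the 8 libraries together. The 150 bases before the RefSeq start of Mmp12, Mmp13 and Timp1 are shown because these members moved together across libraries. Capitals mark TGANTCA, the binding motif of AP-1, a factor long known at MMP promoters. Mmp12 has 2 starts in RefSeq, and that with a match is shown.
Mmp12, GRCm38.p6, plus strand, chr9:7347224-7347373: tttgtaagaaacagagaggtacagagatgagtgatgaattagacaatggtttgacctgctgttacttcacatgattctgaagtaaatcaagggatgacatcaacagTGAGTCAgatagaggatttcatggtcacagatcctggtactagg
Mmp13, GRCm38.p6, plus strand, chr9:7272364-7272513: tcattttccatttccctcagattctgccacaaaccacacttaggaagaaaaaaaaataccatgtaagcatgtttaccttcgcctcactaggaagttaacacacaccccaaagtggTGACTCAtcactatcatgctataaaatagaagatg
Timp1, GRCm38.p6, plus strand, chrX:20870016-20870165: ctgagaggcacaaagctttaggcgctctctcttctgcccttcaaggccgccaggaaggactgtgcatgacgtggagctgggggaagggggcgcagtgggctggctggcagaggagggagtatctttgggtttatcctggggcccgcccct

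The motif reads the same on both strands. It began at base -44 from the start of Mmp12 and at base -35 from that of Mmp13, and the Timp1 window held no match to these letters. Over the full windows of 300 bases, 250 before and 50 after a start, 7.81% of all 32851 RefSeq windows held a match. Of the 39 tested members, 24 matched RefSeq windows by symbol, 28 windows in all. The motif was in 3 of these 28 windows, those of Mmp12, Mmp13 and Adam19. A match is a description of the letters, not of binding.

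The gelatinases did not follow a common pattern. Mmp2 (ENSMUSG00000031740.9), gelatinase A, had 3.86, 4.79, 4.50 and 7.52 CPM in control and 3.02, 5.29, 5.30 and 3.98 CPM in HSC-PCK1-KO livers, again with control replicate 4 highest and HSC-PCK1-KO replicate 1 lowest. Its log2 fold change was -0.23 (SE 0.24), and 0.0088 without control replicate 4. Mmp9 (ENSMUSG00000017737.3), gelatinase B, known from neutrophils and macrophages, had 0.57, 0.59, 0.82 and 1.03 CPM in control and 0.80, 0.28, 0.37 and 0.41 CPM in HSC-PCK1-KO livers.

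For Mmp9, 3 of the 4 HSC-PCK1-KO libraries lay below every control, and HSC-PCK1-KO replicate 1 lay inside the control range. It had the smallest p of all tested members, with a log2 fold change of -0.70 (SE 0.35, 95% interval -1.48 to 0.078), and at 14 to 54 counts per library it was among the least deeply counted. edgeR's unadjusted p was 0.073 and its adjusted p 0.9998. Without HSC-PCK1-KO replicate 1 the log2 fold change was -1.09, with an unadjusted p of 0.0066 and an adjusted p of 0.99996 in edgeR. Without control replicate 4 it was -0.51, with an unadjusted p of 0.20 in edgeR. Neutrophil markers gave little to set beside it, since 2 of 8 were tested, S100a8 and S100a9. The list summed to 0.64 to 4.17 CPM in control and 1.59 to 2.59 CPM in HSC-PCK1-KO livers, with its lowest and highest values in control replicates 2 and 4, and its part in the Mmp9 values was not tested.

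Mmp11, stromelysin-3, a secreted MMP that furin activates inside the cell, went the other way across libraries. It had 3.82, 6.79, 7.31 and 2.58 CPM in control and 6.46, 2.17, 3.01 and 4.67 CPM in HSC-PCK1-KO livers, so that control replicate 4 was the lowest control and control replicate 2 and HSC-PCK1-KO replicate 1 were among the 3 highest libraries. Its log2 fold change was -0.33 (SE 0.42), and -0.55 without control replicate 4.

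Of the membrane-type MMPs, Mmp14 and Mmp15 were steadier, and Mmp17 was not. Mmp14 (ENSMUSG00000000957.12) had 28.3, 21.1, 21.7 and 28.3 CPM in control and 19.9, 29.7, 22.7 and 26.2 CPM in HSC-PCK1-KO livers. The ranges overlapped, the log2 fold change was -0.014 (SE 0.14), and the 95% interval from -0.33 to 0.31 excluded a 1.5-fold change either way. Mmp15 ranged from 34.8 to 41.8 CPM in control and from 33.4 to 48.2 CPM in HSC-PCK1-KO livers, with a log2 fold change of 0.011 (SE 0.12). Mmp17, a membrane-type MMP with a lipid anchor, had 1.01, 1.06, 0.55 and 1.30 CPM in control and 0.63, 0.70, 0.83 and 0.67 CPM in HSC-PCK1-KO livers. All but the lowest control exceeded every HSC-PCK1-KO value, where the log2 fold change was -0.47 (SE 0.27), at edgeR's unadjusted p of 0.11. Without control replicate 3, its lowest control, that value was -0.66, at edgeR's unadjusted p of 0.014 and adjusted p of 0.9998, and without control replicate 4 it was -0.30, at edgeR's unadjusted p of 0.30.

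Of the remaining MMPs, Mmp19 (ENSMUSG00000025355.8) ranged from 68.6 to 89.6 CPM in control and from 67.2 to 93.8 CPM in HSC-PCK1-KO livers, with a log2 fold change of 0.092 (SE 0.11, 95% interval -0.16 to 0.35). Its exons overlap those of Tmem198b on the other strand over 22.3% of their bases. Mmp23, a small membrane-bound MMP, had 2.29, 1.42, 1.59 and 2.14 CPM in control and 0.56, 1.41, 1.81 and 1.69 CPM in HSC-PCK1-KO livers. HSC-PCK1-KO replicate 1 stood well below the rest, and the log2 fold change was -0.44 (SE 0.32), or -0.19 as the value nearest to 0 when a library was left out. Mmp27 and Mmp28 stayed at 0.26 to 1.80 CPM, with log2 fold changes of -0.25 and -0.063. For Mmp27 that value was 0.13 without control replicate 4.

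**Figure D2:**
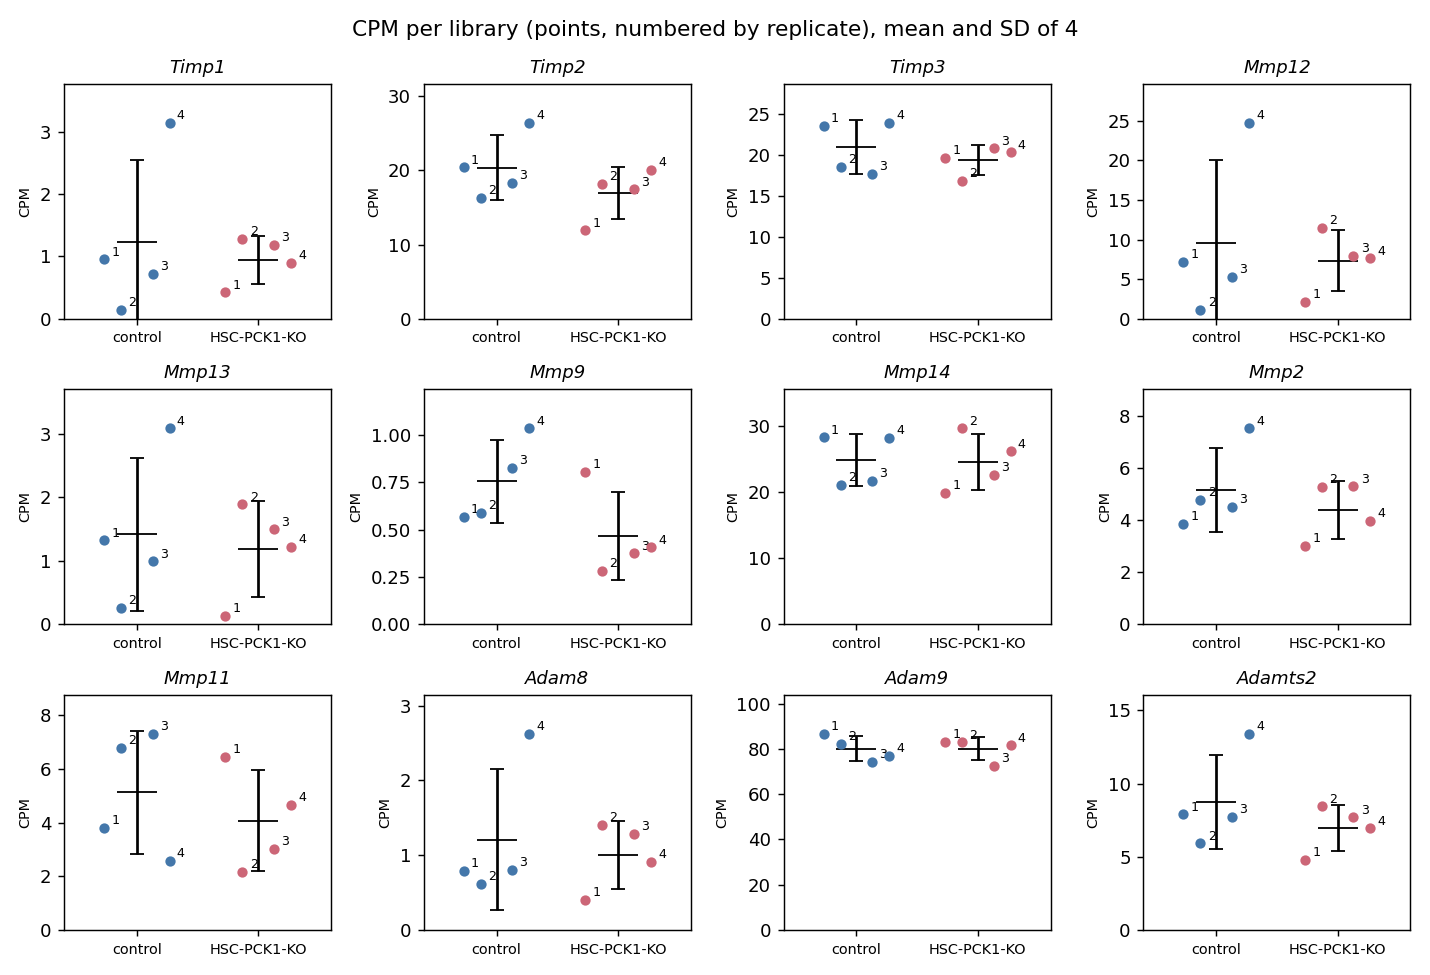
CPM (linear axis from 0) of 12 genes in each library, control in blue and HSC-PCK1-KO in red with the replicate number beside each point, and the mean with SD of 4 in black (lower bars are cut at 0). Control replicate 4 is the highest point for Timp1, Timp2, Timp3, Mmp12, Mmp13, Mmp9, Mmp2, Adam8 and Adamts2, and among the lowest for Mmp11.

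The ubiquitous sheddases were the steadiest of the family. Adam9 (ENSMUSG00000031555.16) had 86.6, 82.2, 74.4 and 76.9 CPM in control and 83.2, 82.8, 72.4 and 81.6 CPM in HSC-PCK1-KO livers. The highest library was 1.2 times the lowest, and the log2 fold change was -0.00031 (SE 0.075), with a 95% interval from -0.17 to 0.17. Its sign changed with the scaling, being 0.00092 with RLE factors. Adam10 (ENSMUSG00000054693.15) ranged from 27.9 to 34.0 CPM in control and from 26.8 to 31.8 CPM in HSC-PCK1-KO livers, with a log2 fold change of -0.045 (SE 0.083). Adam17 (ENSMUSG00000052593.17) ranged from 16.8 to 20.9 and from 17.9 to 19.3 CPM, with a log2 fold change of 0.024 (SE 0.079). For all 3 the interval excluded a 1.5-fold change in either direction.

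Adam8 (ENSMUSG00000025473.17), a sheddase known from macrophages and granulocytes, varied far more. It had 0.79, 0.61, 0.80 and 2.62 CPM in control and 0.40, 1.41, 1.29 and 0.92 CPM in HSC-PCK1-KO livers, so that control replicate 4 stood apart from the other 7 libraries. The log2 fold change was -0.27 (SE 0.53), and 0.45 without that library. Adam15, known from endothelium, ranged from 3.30 to 5.78 CPM in control and from 3.82 to 4.84 CPM in HSC-PCK1-KO livers, and 20.6% of its exon bases lie opposite an antisense gene. Adam19, a sheddase of neuregulins, ranged from 1.84 to 2.62 and from 2.15 to 2.74 CPM, and its log2 fold change was 0.15 (SE 0.17). Adam12, which stellate cells are known to make when activated, had 0.49 to 0.88 CPM in control and 0.38 to 0.64 CPM in HSC-PCK1-KO livers.

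Adam23 and Adam11, which lack a working catalytic site, were also expressed. Adam23, which binds integrins and neuronal ligands rather than cutting proteins, had 10.8 to 13 CPM in control and 10.1 to 14.2 CPM in HSC-PCK1-KO livers, with a log2 fold change of 0.027 (SE 0.12). Adam11 had 8.24, 2.76, 6.09 and 7.96 CPM in control and 8.42, 7.06, 4.72 and 8.35 CPM in HSC-PCK1-KO livers, control replicate 2 being the lowest. Its log2 fold change was 0.19 (SE 0.33), and -0.059 without that library.

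The remaining tested ADAMs were low. Adam33, an active protease known from mesenchymal cells, had 0.76 to 1.38 CPM and a log2 fold change of -0.22 (SE 0.24). Adam4 had 0.38 to 0.94 CPM and a log2 fold change of -0.18 (SE 0.32), or 0.075 without control replicate 4. Adam1a had 0.39 to 0.86 CPM, and 63.7% of its exon bases are shared with another gene model on the same strand, so its counts are uncertain.

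Among the ADAMTS genes, Adamts2 (ENSMUSG00000036545.10), the main procollagen N-proteinase, had 7.89, 5.92, 7.74 and 13.4 CPM in control and 4.78, 8.45, 7.71 and 6.93 CPM in HSC-PCK1-KO livers. Control replicate 4 was highest and HSC-PCK1-KO replicate 1 lowest, and the log2 fold change of -0.33 (SE 0.26) was -0.043 without control replicate 4. Adamts14, of the same class, had 1.27 to 2.31 CPM in control and 0.83 to 2.13 CPM in HSC-PCK1-KO livers, with a log2 fold change of -0.35 (SE 0.30). Adamts3, the third procollagen N-proteinase, had 1 to 10 counts per library and was not tested.

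The groups overlapped for each of the 5 tested proteoglycan-cutting enzymes. Adamts1 (ENSMUSG00000022893.15) had 16.8, 13.7, 10.5 and 17.6 CPM in control and 12.8, 16.1, 17.6 and 13.3 CPM in HSC-PCK1-KO livers, a log2 fold change of 0.029 (SE 0.17). Adamts5, the main aggrecan-cutting enzyme of mouse cartilage, ranged from 2.07 to 2.72 and from 2.32 to 2.93 CPM, with a log2 fold change of 0.16 (SE 0.15). Adamts4 and Adamts9 had log2 fold changes of 0.33 and -0.043, and Adamts15 of -0.068. Without control replicate 4 these were 0.64 for Adamts4, 0.15 for Adamts9 and 0.24 for Adamts15.

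Adamts13 (ENSMUSG00000014852.17), the enzyme that cleaves von Willebrand factor and is known to come from stellate cells, had 6.64, 7.57, 6.89 and 7.10 CPM in control and 5.54, 6.50, 7.54 and 6.73 CPM in HSC-PCK1-KO livers. Its log2 fold change was -0.10 (SE 0.11), with an interval from -0.35 to 0.15 that excluded a 1.5-fold change either way. Adamts12, a relative of Adamts7, had 0.42 to 1.26 CPM, with a log2 fold change of -0.073 (SE 0.38). Adamts7 ranged from 7.06 to 12 and from 9.14 to 12.7 CPM, and Adamts10, which takes part in microfibril assembly, from 9.25 to 13.7 and from 7.46 to 11.5 CPM, with log2 fold changes of 0.097 and -0.13. Adamts6 had the largest positive log2 fold change of the tested members, 0.47 (SE 0.38), with 1.62, 1.34, 2.30 and 2.89 CPM in control and 3.26, 3.44, 1.06 and 3.56 CPM in HSC-PCK1-KO livers. The 3 highest libraries and the lowest were all HSC-PCK1-KO, and without replicate 3 of that group the log2 fold change was 0.74, with an unadjusted p of 0.016 and an adjusted p of 0.999 in edgeR. It was smallest, 0.31, without control replicate 2.

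Over the 39 tested members, 28 had a negative log2 fold change and 11 a positive one, with a median of -0.072, beside 51.8% negative and a median of -0.0055 over all genes tested. By family, 3 of 3 TIMPs, 10 of 12 MMPs, 8 of 12 ADAMs and 7 of 12 ADAMTSs were negative. The tested collagenases, gelatinases, stromelysins and elastase (Mmp2, Mmp9, Mmp11, Mmp12 and Mmp13, 5 of 5) and procollagen N-proteinases (2 of 2) were on that side. The secreted Mmp19 was positive, and the proteoglycan-cutting ADAMTSs were negative in 2 of 5. This count depended on the tool and on the libraries, most on control replicate 4. With limma-voom it was 23 of 39, at a median of -0.015. Without HSC-PCK1-KO replicate 1, 8 of 12 MMPs, 3 of 3 TIMPs, 8 of 13 ADAMs and 4 of 12 ADAMTSs were negative. Without control replicate 4, 13 of 39 were negative and the median was 0.075, with 5 of 12 MMPs, 2 of 3 TIMPs, 3 of 12 ADAMs and 3 of 12 ADAMTSs negative. With both that library and HSC-PCK1-KO replicate 1 left out it was 13 of 39 again, at a median of 0.14, with 0 called and 3 at an unadjusted p under 0.05 in edgeR. The share and median over all genes given above are from the fit of all 8 libraries. They are not the background of the runs with libraries left out, for which no share is given here.

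**Figure D3:**
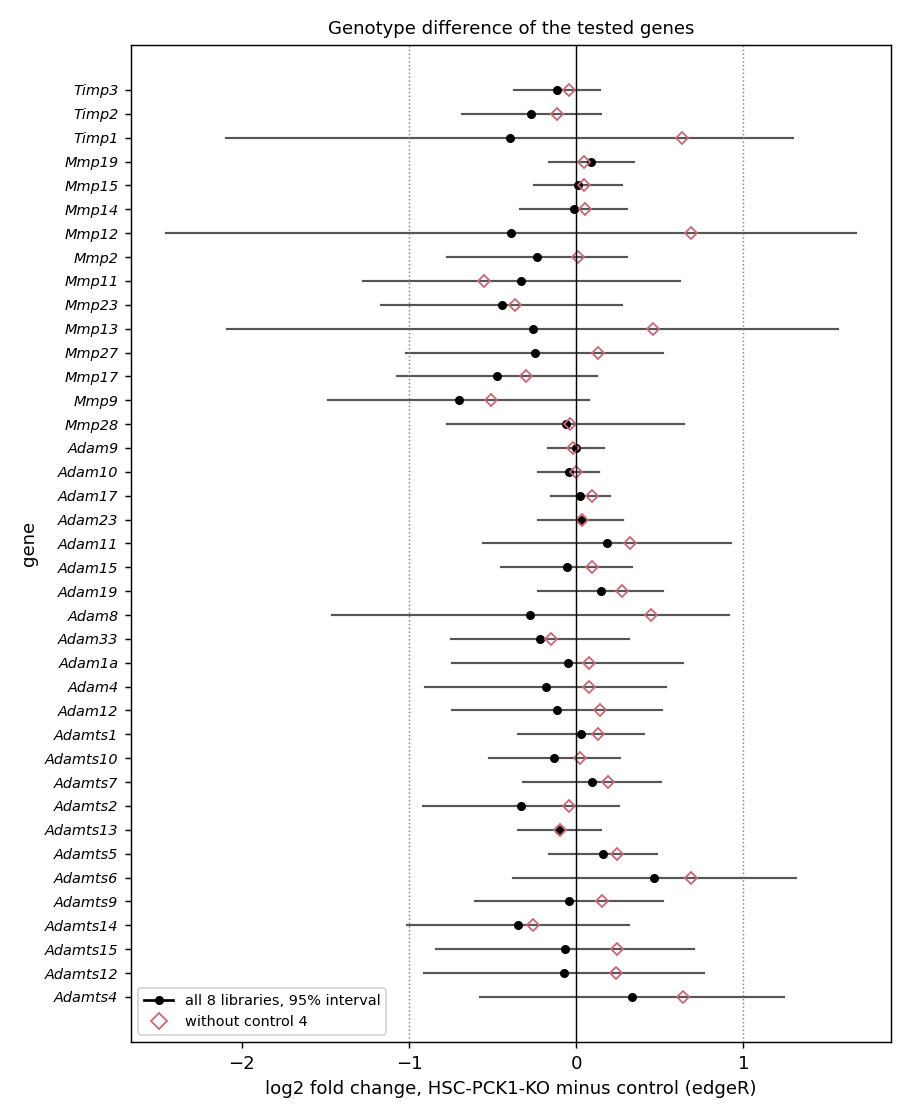
Log2 fold change of HSC-PCK1-KO minus control for the 39 tested genes (black points) with 95% intervals from edgeR, and the value without control replicate 4 (red diamonds). Every interval spans 0, and the diamonds lie to the right of the points for most genes, farthest for Mmp12, Timp1, Mmp13 and Adam8.

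The precision of these differences varied between genes and did not simply follow their level. The 95% interval lay within a 2-fold change either way for 27 of 39 members, beside 86.7% of all genes. For members with a mean of at least 10 CPM it did so in 11 of 11, beside 97.5% of all genes at that level. At 1 to 10 CPM it did so in 10 of 18 members, beside 90.8% of all genes. Below 1 CPM it did so in 6 of 10, beside 53.3%. It spanned 2-fold in both directions for Timp1, Mmp12 and Mmp13, so that a change of that size in these 3 could not be detected or excluded with 4 libraries a group.

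The libraries of a group differed more for members at moderate levels than for those at high levels. The biological coefficient of variation that edgeR estimates, the spread between libraries of a group beyond counting noise, had a median of 0.25 over the tested members and 0.15 over all genes tested. At 1 to 10 CPM the medians were 0.28 for 18 members and 0.18 for all genes, and at 10 CPM or more they were 0.13 for 11 members and 0.11 for all genes. It was 0.82 for Mmp12, 0.78 for Mmp13, 0.72 for Timp1 and 0.51 for Adam8, and at most 0.10 for Adam9, Adam10 and Adam17.

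The same libraries stood at the ends for many members. Control replicate 4 was the highest of the 8 in 22 of 39 members (56.4%), where it was the highest in 15.4% of all genes tested, and it was the lowest in 0 members. HSC-PCK1-KO replicate 1 was the lowest in 16 of 39 (41.0%), where it was the lowest in 15.1% of all genes. Members share each library's RNA and scaling, so these counts describe 2 libraries and are not evidence about genotype.

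**Figure D4:**
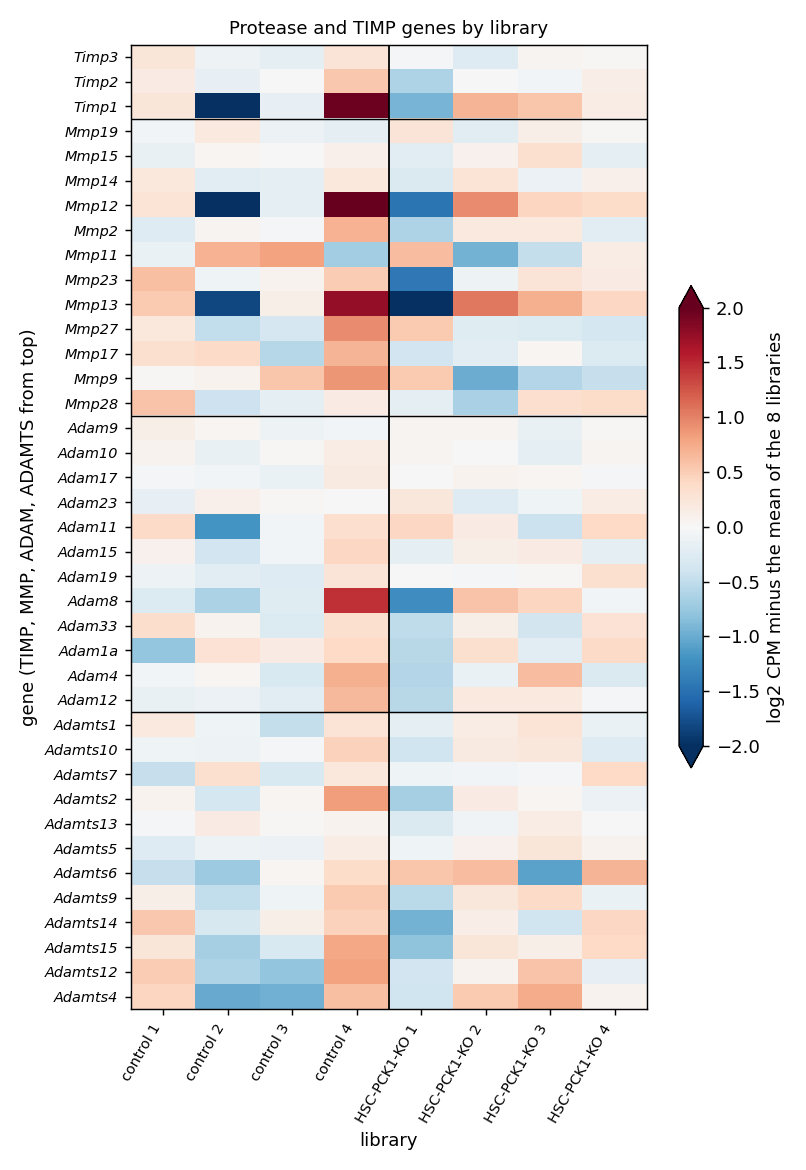
Log2 CPM minus the mean of the 8 libraries (colour, red higher and blue lower, capped at 2) for the 39 tested genes in rows by family and the 8 libraries in columns, control left of the line. The control 4 column is red for most genes and the HSC-PCK1-KO 1 column blue for many, with Timp1, Mmp12 and Mmp13 the most strongly coloured rows and Mmp11 of opposite colour.

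Markers of cell types known to make these genes had control replicate 4 at their upper end too, but so had other lists. Neutrophil and mesothelial markers had their highest sums there (4.17 and 10.3 CPM), and Kupffer cell markers summed to 449 CPM, below only HSC-PCK1-KO replicate 1. Hepatocyte markers had their lowest control sum there (91033 CPM). B and plasma cell markers were not highest there either, at 6.17 CPM beside 8.97 in control replicate 1. Recruited and lipid-associated macrophage markers, all 10 tested, summed to 170, 95, 126 and 352 CPM in control replicates 1 to 4 and to 187, 212, 172 and 195 CPM in HSC-PCK1-KO replicates 1 to 4. Trem2, a receptor of lipid-associated macrophages, had 4.48 CPM in control replicate 4, 0.97 in control replicate 2 and 0.74 in HSC-PCK1-KO replicate 1. Cd9, of the same list, was not highest there, with 24.1 CPM in control replicate 4, 30.1 in control replicate 1 and 33.5 in HSC-PCK1-KO replicate 4. Stellate cell and fibroblast markers, all 12 tested, had a narrower range, from 194 to 247 CPM in control and from 183 to 220 CPM in HSC-PCK1-KO livers, with the extremes again in control replicate 4 and HSC-PCK1-KO replicate 1. None of the genes in these lists was at 0 in every library. By genotype, 8 of 10 macrophage and 9 of 12 stellate markers had a negative log2 fold change, beside 51.8% of all genes. These counts are from all 8 libraries, and none is given without control replicate 4. In the other controls the macrophage sums, 170, 95 and 126 CPM, lay below every HSC-PCK1-KO sum. The only stellate marker at an unadjusted p under 0.05 in edgeR, Rgs5, was higher in HSC-PCK1-KO, with a log2 fold change of 0.25 (edgeR's unadjusted p = 0.035, adjusted p = 0.9998). The part of these cells in the members' values was not tested beyond the relations given next.

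For 8 members known from stellate cells or macrophages, the log2 CPM was set against a score for each marker list (the mean z score of its genes), 16 relations over the 8 libraries in all. All 16 Pearson correlations were positive, from 0.53 to 0.96. The lowest, Mmp2 with the macrophage score, had an exact permutation p of 0.156 (adjusted p = 0.156) and a rho of 0.38. Permutations ran over all 8 libraries, both genotypes together. Of the 16 Pearson correlations, the other 15 had an adjusted p under 0.05 by exact two-sided permutation of the libraries. By Spearman's rho 0 of 16 had, with a smallest adjusted exact permutation p of 0.0581 and 8 at an unadjusted p under 0.05. The share of all genes tested with such a relation was not computed, so the count cannot be called particular to these members. The scores themselves went together over the 8 libraries (r = 0.81 and rho = 0.81, not tested), so a relation with one is not separate from that with the other. The relations leaned on the outer libraries. In place of 15, leaving out control replicate 4 gave 3, and leaving out HSC-PCK1-KO replicate 1 gave 7.

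Mmp12 and Timp1 had their higher r with the macrophage score. For Mmp12, r was 0.96 (exact permutation p = 0.000347, adjusted p = 0.00556) and rho 0.88 (exact permutation p = 0.00724, adjusted p = 0.0581). Without control replicates 2 and 4, the libraries farthest from the median score, r was 0.84 over 6 libraries. For Timp1, r was 0.96 (exact permutation p = 0.000868, adjusted p = 0.00694) and rho 0.83 (exact permutation p = 0.0154, adjusted p = 0.0581), and r was 0.80 without the same 2 libraries. With each group's mean subtracted, r was 0.96 for both. With the stellate score, r was 0.79 for Mmp12 and 0.74 for Timp1 (adjusted exact permutation p = 0.032 and 0.047). For Mmp13, r with the macrophage score was 0.84 (exact permutation p = 0.00709, adjusted p = 0.0221) and rho 0.81 (exact permutation p = 0.0218, adjusted p = 0.0581), and r was 0.77 without those libraries. Its r with the stellate score was slightly higher, at 0.86 (exact permutation p = 0.00427, adjusted p = 0.0171), with rho 0.76 (exact permutation p = 0.0368, adjusted p = 0.0735), and r was 0.57 without the 2 libraries farthest in that score.

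Timp2 went with both scores. With the stellate score it had r of 0.95 (exact permutation p = 0.00241, adjusted p = 0.0128) and rho of 0.83 (exact permutation p = 0.0154, adjusted p = 0.0581), and r of 0.68 without HSC-PCK1-KO replicate 1 and control replicate 4. With the macrophage score it had r of 0.76 (exact permutation p = 0.0358, adjusted p = 0.0432) and rho of 0.81 (exact permutation p = 0.0218, adjusted p = 0.0581), and r of 0.76 without control replicates 2 and 4. Mmp14 held its r with the macrophage score when the 2 farthest libraries were left out, at 0.79 (exact permutation p = 0.0132, adjusted p = 0.0239) with all 8 and 0.90 without them, with a rho of 0.79 (exact permutation p = 0.0279, adjusted p = 0.0638). For Mmp2 and the stellate score, r of 0.75 (exact permutation p = 0.0378, adjusted p = 0.0432) became -0.38 without the 2 farthest libraries, with a rho of 0.40 (exact permutation p = 0.327, adjusted p = 0.349), so that relation rested on those libraries. For Adam8 and Adamts2 with the stellate score, r was 0.86 and 0.89 (both with an adjusted exact permutation p of 0.0221) and 0.34 and 0.35 without the same libraries, and rho was 0.62 and 0.64, with adjusted exact permutation p-values of 0.131 and 0.118. With the macrophage score, r was 0.81 and 0.82 (adjusted exact permutation p = 0.0279 and 0.0320) and 0.68 and 0.63 without control replicates 2 and 4, and rho was 0.81 and 0.71 (adjusted exact permutation p = 0.0581 and 0.0838).

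**Figure D5:**
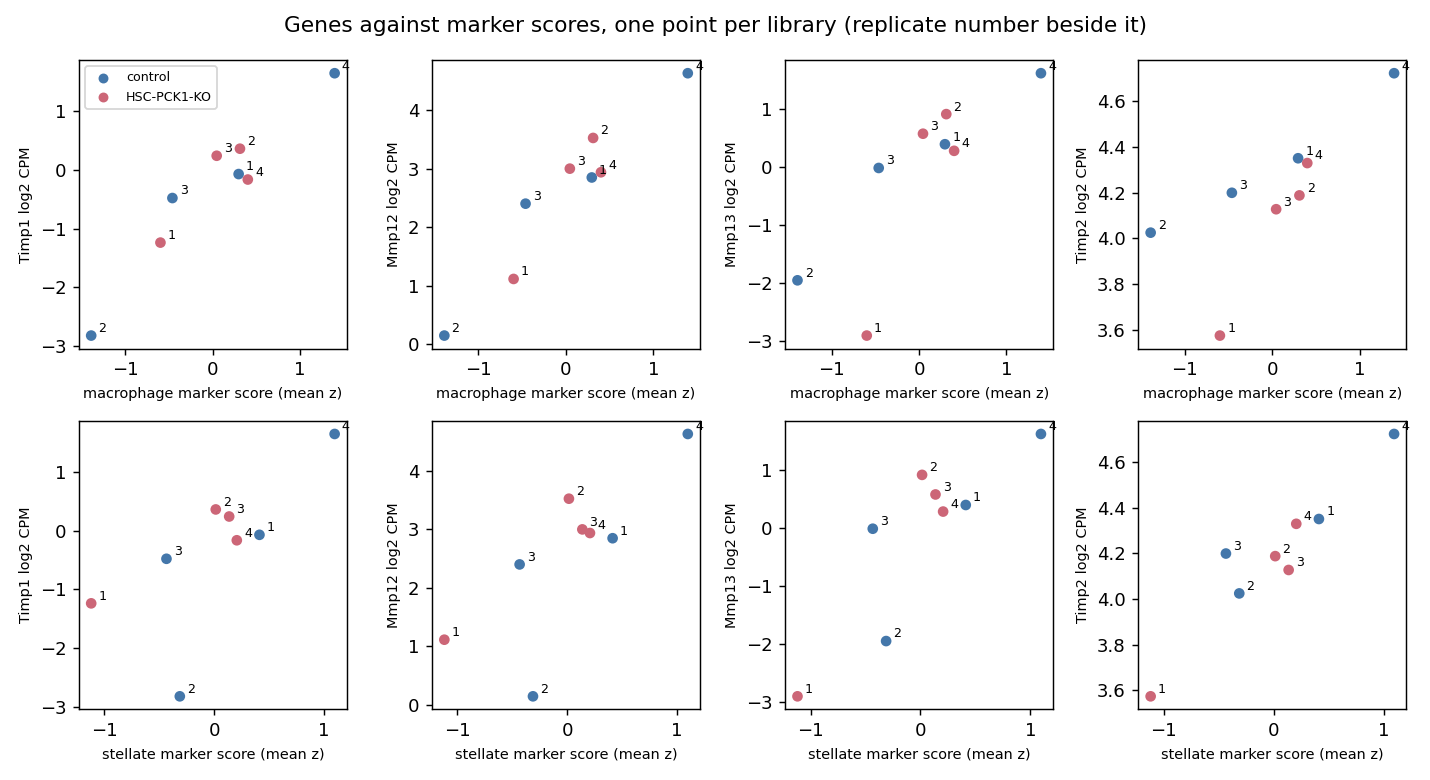
Log2 CPM of Timp1, Mmp12, Mmp13 and Timp2 (vertical axes) against the macrophage marker score (top row) and the stellate marker score (bottom row), one point per library with its replicate number, control in blue and HSC-PCK1-KO in red. Timp1 and Mmp12 rise with the macrophage score through both groups, from control 2 at the lower left to control 4 at the upper right.

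Genes that control or surround the proteases gave 0 calls in edgeR (0% of all genes), over 26 tested regulators, 6 ADAMTS-like proteins and 33 substrates. At an unadjusted p under 0.05 there were 3 of these 65, where 2.36% of all genes stood, and in 3 the groups did not overlap, as in 1.53% of all genes. Regulators such as furin, plasminogen activators and the iRhom and tetraspanin partners of ADAM17 and ADAM10 had 19 of 26 on the negative side, at a median of -0.10 (log2). At an unadjusted p under 0.05 there was 1, Spock2, a secreted proteoglycan of the testican family, with 1.52, 0.71, 0.61 and 1.24 CPM in control and 0.29, 0.36, 0.48 and 0.39 CPM in HSC-PCK1-KO livers. Every control was higher, and the log2 fold change was -1.43 (SE 0.33, edgeR's adjusted p = 0.9998). Mesothelial markers moved with it. All 5 were tested and negative, 3 at an unadjusted p under 0.05, and they summed to 10.2, 4.81, 3.49 and 10.3 CPM in control and 1.56, 2.09, 2.74 and 3.48 CPM in HSC-PCK1-KO livers. The part of mesothelial cells in the Spock2 difference was not tested.

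Frmd8, which stabilises the iRhom partners of ADAM17, and Lrp1, the endocytic receptor that clears MMPs, had log2 fold changes of -0.16 (SE 0.10) and -0.15 (SE 0.10). The ADAMTS-like proteins, which resemble ADAMTSs but have no protease domain, were negative in 6 of 6 (51.8% of all genes), with a median of -0.31. Papln, papilin, had 3.13, 2.50, 2.64 and 2.37 CPM in control and 1.14, 2.25, 1.6 and 2.26 CPM in HSC-PCK1-KO livers, each control above each HSC-PCK1-KO value, where the log2 fold change was -0.55 (SE 0.22), at edgeR's unadjusted p of 0.032. Adamtsl1 and Thsd4 had log2 fold changes of -0.50 and -0.32.

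Substrates were negative in 24 of 33 (51.8% of all genes), with a median of -0.099, control replicate 4 included. Cd163, the haptoglobin-haemoglobin receptor of macrophages that ADAM17 sheds, had 14.3, 13.1, 9.79 and 11.5 CPM in control and 6.52, 6.03, 11.2 and 5.87 CPM in HSC-PCK1-KO livers. All but HSC-PCK1-KO replicate 3 lay below every control, where the log2 fold change was -0.72 (SE 0.22), at edgeR's unadjusted p of 0.0083. Kupffer cell markers, set beside it, were negative in 3 of 6 and summed to 282 to 449 CPM in control and 239 to 465 CPM in HSC-PCK1-KO livers, and their part in it was not tested. Fn1, fibronectin, which hepatocytes also make, stood apart without overlap and ranged from 1612 to 2021 CPM in control and from 1434 to 1602 CPM in HSC-PCK1-KO livers, a log2 fold change of -0.21 (SE 0.099). Vcan, versican, a substrate of ADAMTSs, had a log2 fold change of -0.65 (SE 0.34) at 0.20 to 0.57 CPM.

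The 40 members that were not tested comprised 11 MMPs, 1 TIMP, 21 ADAMs and 7 ADAMTSs. Of these, 16 had 0 counts in every library: Mmp1a, Mmp1b, Mmp20, Adamts19, Adam1b, Adam3, Adam6a, Adam7, Adam18, Adam20, Adam25, Adam26a, Adam26b, Adam29, Adam34 and Adam39. Many of these ADAMs are known from testis or epididymis. A count of 0 allows up to 0.0574 to 0.0708 CPM in a library (3 counts), for counting error only. The other 24 had at most 16 counts in any library. Adam22, with 2 to 16 counts, Adamts3, with 1 to 10, and Mmp24, with 1 to 14, came closest to the filter, while Mmp28, with 13 to 30, was just inside it.

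Several members known from liver injury in other settings were in that group. Mmp3, stromelysin-1, had 0 to 6 counts, Mmp7, matrilysin, known from bile ducts, 0 to 6, Mmp8, neutrophil collagenase, 0 to 6, and Mmp10 0 to 2. Mmp25, a membrane-type MMP of neutrophils, had 0 to 12 and Mmp16 0 to 2. Adamts16, Adamts17 and Adamts8 had at most 9 counts in a library, Adam28 at most 1, and Adamts18 and Adamts20 at most 1. Adam2, Adam5, Adam6b, Adam21, Adam24, Adam30 and Adam32, and Mmp21 among the MMPs, had at most 8. No difference between genotypes was detectable for them at this depth.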

How the data were processed

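RNA from 8 livers was enriched for poly(A) and sequenced as strand-specific paired reads of 100 bases, per the labels' protocols. The authors deposited raw counts per gene identifier, with no normalization. The build was GRCm39, per the submitters' processing notes, which also name R 4.3.2. The aligner, counter, annotation and strand setting: not given in the sources used here. Identifiers were matched to GENCODE M21 (GRCm38) for symbols, exon lengths and overlaps, which named 52029 of 56953 identifiers, and promoter sequences are RefSeq's for GRCm38.p6.

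Counts were fitted in R 4.3.3 with edgeR 4.0.16 (filterByExpr, TMM factors, robust quasi-likelihood F-test, genotype as the only term). P-values were adjusted by Benjamini-Hochberg over the 15669 genes kept, at a threshold of 0.05. The calculation was tested on simulated data. CPM divides a count by the scaled total of the genes kept, and log2 CPM for the scores used a prior count of 2. Intervals of zero counts cover counting error only. No library was a copy of another: libraries of a group differed by a chi-square of 44.4 to 168 per degree of freedom.

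Named are the TIMPs, the 8 highest MMPs, ADAMs and ADAMTSs by mean CPM, the 6 members with the smallest p, and 3 genes of each accompanying list by smallest p. Further members were named for completeness. The members, classes and lists were chosen with earlier results of these data known. Alternatives were RLE and upper quartile factors, other filters, DESeq2 1.42.0, limma 3.58.1 (voom, sample weights), a block for the replicate number, an adjusted p of 0.1 and leaving out each library.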

Additional observations from a re-analysis of the deposited data

Results flagged for a closer look

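In 9 of 78 groups of 4 libraries over the tested members, a single library lay farther from its nearest neighbour than Dixon's 95% critical value allows, where chance flags about 1 in 20 groups, or 3.9. The share of flagged groups over all genes tested was not computed, and members share libraries. The count therefore cannot be called particular to these members. Control replicate 4 was high for Adam8 (2.62 CPM), Adam12 (0.88 CPM) and Adamts10 (13.7 CPM). HSC-PCK1-KO replicate 3 was low for Adam9 (72.4 CPM), Adam10 (26.8 CPM) and Adamts6 (1.06 CPM). HSC-PCK1-KO replicate 4 was high for Adam19 (2.74 CPM) and Adamts7 (12.7 CPM), and HSC-PCK1-KO replicate 1 for Mmp27 (1.34 CPM).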

How the results depend on the processing

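No member was called under any alternative run. The count of genes called, 0, was 6 with DESeq2 and 0 to 1 when a library was left out. The count of members with a negative value, 28, was 23 with limma-voom and 17 of 28 with at least 1 CPM in 4 libraries. It was 13 to 31 when a library was left out, and 13 with both control 4 and HSC-PCK1-KO 1 left out, a setting chosen after seeing the data. The count of 15 relations ranged from 3 to 16 when a library was left out. Libraries with the same number did not deviate together (correlations of -0.033, -0.33, -0.059 and 0.058), and 0 of 4 controls correlated best with the library of its own number. No pairing by number was visible, though a check over 4 numbers cannot exclude one. With the replicate block 0 genes and 0 members were called, 28 members were negative, and Mmp15 turned to -0.0025.

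Other log2 fold changes also turned sign, and the cause was not tested. Adam9 was 0.00092 with RLE factors, 0.0054 with upper quartile factors, 0.0036 with no filter, 0.0019 with at least 1 CPM in 4 libraries, 0.00094 with DESeq2 and 0.0069 with limma-voom. limma-voom also gave 0.18 for Timp1, 0.015 for Mmp14, 0.13 for Mmp12 and -0.013 for Adam23. Leaving out a library gave -0.76 to 0.63 for Timp1, -0.76 to 0.69 for Mmp12, -0.60 to 0.46 for Mmp13, -0.12 to 0.073 for Mmp14, -0.11 to 0.078 for Mmp15, -0.35 to 0.0088 for Mmp2, -0.49 to 0.45 for Adam8, -0.029 to 0.044 for Adam9, -0.097 to 0.010 for Adam10, -0.059 to 0.34 for Adam11, -0.18 to 0.095 for Adam15, -0.011 to 0.094 for Adam17, -0.050 to 0.11 for Adam23, -0.097 to 0.13 for Adamts1, -0.027 to 0.23 for Adamts7, -0.19 to 0.15 for Adamts9 and -0.23 to 0.026 for Adamts10. Without control replicate 4, Mmp27 (0.13), Adam1a (0.076), Adam4 (0.075), Adam12 (0.14), Adamts12 (0.24) and Adamts15 (0.24) turned too. Depth leaves few counts for some members, as few as 14 in a library for Mmp9, and its effect on precision was not tested.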
